A study of Bos taurus with 36 samples.

Results

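The genes described here are 9 liver transcription factors: HNF4A, FOXA2, FOXA3, RXRA, PPARA, NR1H3, NR1H4, NR0B2 and NR5A2. They were read through every probe set of the array whose single annotated gene is one of them, by current symbol or synonym. This gave 8 of 24128 probe sets, which cover 6 of the 9 genes. HNF4A, FOXA3, RXRA and NR5A2 have 1 probe set each, PPARA and NR1H3 have 2 each, and FOXA2, NR1H4 and NR0B2 are not analysed here. RNA came from liver biopsies of 8 healthy Holstein-Friesian dairy cows in first lactation. At time 0 each cow received E. coli lipopolysaccharide (LPS) in the right front gland of the udder and NaCl solution alone in the left front gland, and each carried a jugular catheter. Biopsies of all 8 cows were arrayed at -22, 9 and 48 h relative to the infusion, with additional arrays of cows 1, 3, 7 and 8 (4 cows) at 3, 6 and 12 h, so that -22 h is the untreated state of the same animals. No cow given saline alone is on an array, and LPS, the hour of sampling and repeated biopsies therefore cannot be told apart on these arrays. The study reports that in cows given NaCl solution the biopsy had no effect on clinical measurements or a chosen subset of genes.

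HNF4A is a nuclear receptor that holds the differentiated state of the hepatocyte and drives genes of lipoprotein, clotting factor and urea cycle metabolism. FOXA factors open chromatin at liver enhancers. RXRA is the shared dimer partner of receptors that sense lipids, among them PPARA for fatty acids, NR1H3 (liver X receptor alpha) for oxysterols and NR1H4 for bile acids, while NR0B2 is a repressor in bile acid feedback and NR5A2 (liver receptor homolog 1) an activator of bile acid synthesis. In rodent liver, RXRA and several of its partners are known to fall during the acute phase response to endotoxin.

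Values are log2 expression values made by the authors with GCRMA, where 1 unit is a doubling. A probe set was said to have changed where the adjusted p of limma was below 0.05 (Benjamini-Hochberg, over all 24128 probe sets). Array medians lay between 4.15 and 4.38, and the hybridization controls of the -22 h array of cow 7 averaged 13.1 against 10.2 to 11.4 on the other 35 arrays. The log2 difference between the 3′ and 5′ control probe sets of GAPD, a sign of RNA quality, had a median of 0.19 at -22 h, -0.01 at 3 h, -0.09 at 6 h, -0.10 at 9 h, -0.31 at 12 h and -0.21 at 48 h. That of actin was -0.26 in cow 8 at 12 h and 0.40 to 3.57 on the other arrays, and without cow 8 the same number of members, 4, was changed at 12 h. The part of RNA quality in the other results was not tested. All 8 hepatocyte markers listed were measured, at a mean log2 value of 14.3 to 14.7 per array at -22 h and 14.2 to 14.5 at 9 h. At 9 h 1 of these markers, the fibrinogen chain FGB, rose and 5 fell. The mean of the 4 measured neutrophil markers of 6 listed went from 4.05 to 4.95 at -22 h to 8.36 to 10.6 at 9 h, where S100A8, S100A9 and S100A12 rose and MMP9 lay at 2.10 and 2.21. Of 7 endothelial markers, 1 rose and 4 fell at 9 h. The part of these cell types in the results below was not tested. In bulk tissue, fewer cells of a type and less RNA per cell cannot be told apart.

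The members did not move together. HNF4A, RXRA and NR1H3 were lower at 6 and 9 h after LPS than at -22 h, FOXA3 rose and stayed high to 12 h, NR5A2 rose steeply at 6 h and was below its starting level at 48 h, and PPARA was lower at 6 h on the brighter of its probe sets. At 3 h 1 of the 8 probe sets was lower and none was higher, against 2.40% lower and 3.50% higher of all probe sets. At 6 h 3 were higher and 5 lower, beside 23.3% higher and 22.0% lower over the whole array. At 9 h 2 were higher and 4 lower (32.0% and 22.6% of all), and at 12 h 1 was higher and 3 were lower (22.2% and 18.9%). At 48 h none was higher and 2 were lower, with 17.9% and 12.2% over all probe sets. The median log2 change of the 8 probe sets was -0.82 at 6 h and -0.72 at 9 h, beside 0.03 over all probe sets at both hours. Over the probe sets whose mean was at least 5 the median at 6 h was -0.13, and centring the arrays on those probe sets left 7 of the 8 members changed at that hour, 2 higher and 5 lower.

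**Figure D1:**
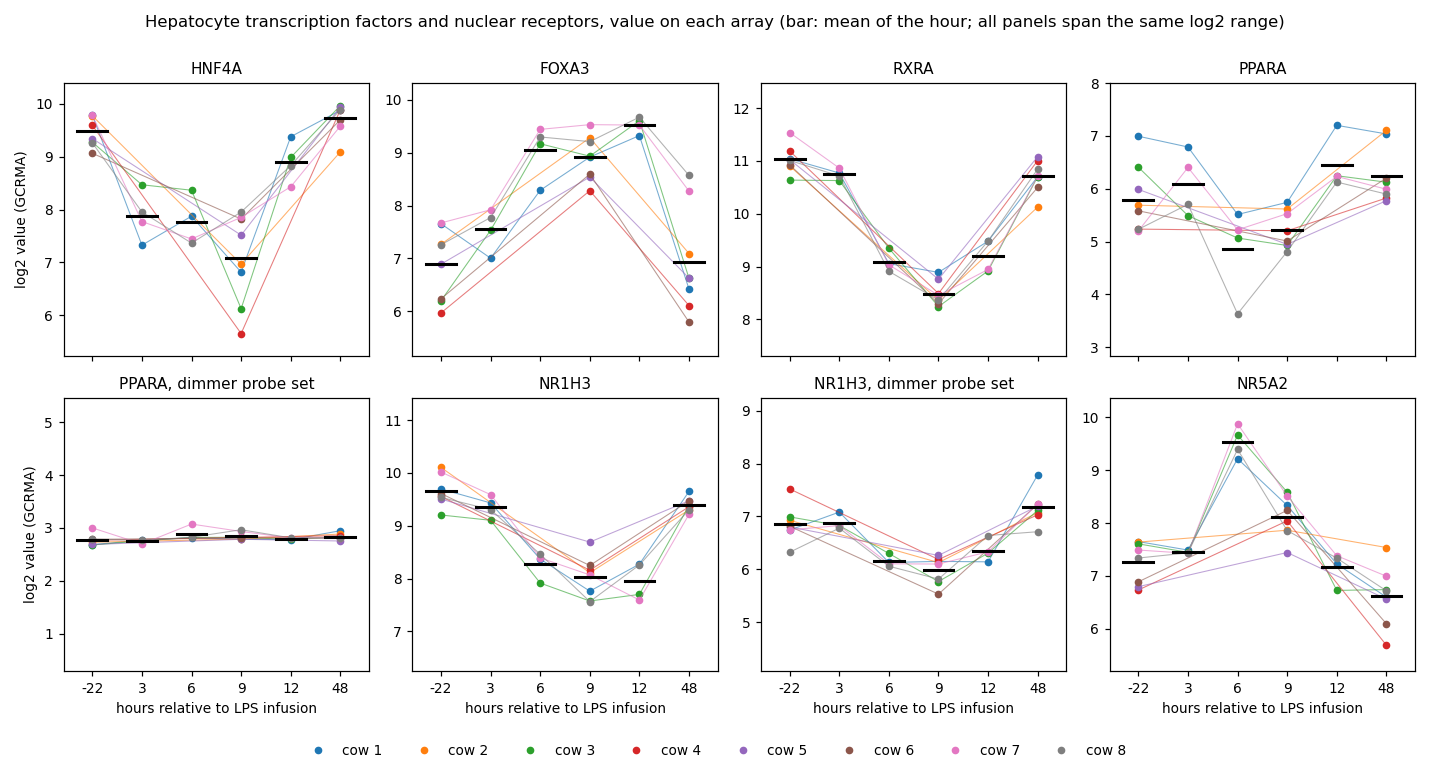
Log2 value (GCRMA) of the 8 probe sets on each array against the hour relative to LPS infusion; each point is 1 cow, thin lines join the arrays of a cow, and the black bar is the mean of the hour (8 cows at -22, 9 and 48 h, 4 cows at 3, 6 and 12 h). All panels span the same number of log2 units, and RXRA at 9 h lies at 8.24 to 8.89 in every cow against 10.6 to 11.5 at -22 h.

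HNF4A (Entrez Gene 509200) was the only one of the 8 probe sets changed at 3 h, and its mean was lowest at 9 h. At -22 h its log2 values ran from 9.07 to 9.79 with a median of 9.47. At 3 h they were 7.33 in cow 1, 8.47 in cow 3, 7.77 in cow 7 and 7.96 in cow 8, all below the lowest cow of -22 h. At 6 h the same cows had 7.88, 8.37, 7.44 and 7.37, again without overlap with -22 h. The 8 cows ranged from 5.66 in cow 4 to 7.95 in cow 8 at 9 h, with a median of 7.24. This was the widest spread of the gene at any hour (SD 0.86, against 0.28 at -22 h), and cows 3 and 4 were furthest down. By 12 h the values were 9.38, 8.99, 8.43 and 8.83, and at 48 h they ran from 9.09 to 9.97 with a median of 9.88. The change was -1.60 at 3 h (SE 0.31, adjusted p = 0.000746, lower in 4 of 4 cows), -1.72 at 6 h (SE 0.31, adjusted p = 2.36e-05) and -2.40 at 9 h (SE 0.25, adjusted p = 9.04e-10, lower in 8 of 8), the last being a 5.27-fold difference. At 12 h it was -0.58 (95% interval -1.22 to 0.06, adjusted p = 0.154), and at 48 h 0.25 (-0.26 to 0.77, adjusted p = 0.452). In the order of the hourly means, 48 h, -22 h, 12 h, 3 h, 6 h and 9 h, the neighbours 12 and 3 h differed (adjusted p = 0.0248, where 34.9% of all probe sets differed between these hours), and the others did not pass the test.

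HNF4A was lower than at -22 h at 3, 6 and 9 h, and FOXA3 (Entrez Gene 503622) was higher at 6, 9 and 12 h. FOXA3 is the FOXA factor whose transcript dominates in the adult liver of rodents. At -22 h its log2 values ran from 5.97 to 7.67 with a median of 7.08. At 3 h they were 7.00 in cow 1, 7.53 in cow 3, 7.92 in cow 7 and 7.77 in cow 8, within or just above that range. The values then stood clear of it, at 8.29, 9.17, 9.44 and 9.30 at 6 h, 8.28 to 9.53 with a median of 8.93 in the 8 cows at 9 h, and 9.32, 9.61, 9.52 and 9.67 at 12 h. The changes were 0.66 at 3 h (SE 0.39, adjusted p = 0.423), 2.16 at 6 h (SE 0.39, adjusted p = 2.58e-05), 2.02 at 9 h (SE 0.32, adjusted p = 2.16e-06, higher in 8 of 8 cows) and 2.64 at 12 h (SE 0.39, adjusted p = 1.05e-06, 6.22-fold). At 48 h the cows parted. Cows 7 and 8 were at 8.27 and 8.57, above every array of -22 h, while the other 6 lay between 5.80 and 7.09. The mean change at 48 h was 0.04 (95% interval -0.61 to 0.70, adjusted p = 0.929), and its sign turned when cow 3, 7 or 8 was left out. In the order of means, 12, 6, 9, 3, 48 and -22 h, the neighbours 9 and 3 h differed and no others passed the test (adjusted p = 0.00493, with 60.5% of all probe sets changed between them).

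RXRA (Entrez Gene 507554) at 6, 9 and 12 h had the smallest errors relative to its change among the 8 probe sets. Its log2 values at -22 h ran from 10.6 to 11.5 with a median of 11.0, and at 3 h they were 10.8, 10.6, 10.9 and 10.7 in cows 1, 3, 7 and 8. At 6 h they had dropped to 9.06, 9.35, 9.03 and 8.91. The 8 cows lay within 8.24 to 8.89 at 9 h (median 8.41), and the values were 9.48, 8.92, 8.95 and 9.49 at 12 h. None of these arrays overlapped with -22 h. The change of -0.29 at 3 h did not pass the test (SE 0.15, adjusted p = 0.347), although it was below the cow's own -22 h array in 4 of 4 cows. It was -1.95 at 6 h (SE 0.15, adjusted p = 2.38e-12), -2.55 at 9 h (SE 0.12, adjusted p = 7.95e-18, 5.85-fold) and -1.82 at 12 h (SE 0.15, adjusted p = 7.66e-12). At 48 h the cows were at 10.1 to 11.1 (median 10.7). The change of -0.32 (SE 0.12, adjusted p = 0.0481, lower in 6 of 8 cows) passed the threshold narrowly, and it did not pass in 13 of 20 alternatives, among them those without cow 1 (adjusted p = 0.119), cow 2 (0.12), cow 4 (0.0702), cow 6 (0.0834), cow 7 (0.124) or cow 8 (0.0605), without the -22 h array of cow 1 (0.0773) or cow 7 (0.0896) and without the 48 h array of cow 2 (0.115). Ordered by mean (-22, 3, 48, 12, 6 and 9 h), the neighbours 48 and 12 h differed (adjusted p = 5.39e-10), as did 6 and 9 h (adjusted p = 0.00267), and the other neighbours did not pass the test.

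PPARA (Entrez Gene 281992), the fatty acid receptor of the liver, passed the test against -22 h at 6 h, and its levels differed widely between cows. At its brighter probe set the -22 h log2 values ran from 5.20 to 6.99 with a median of 5.64, and cow 1 was the highest. At 3 h they were 6.79 in cow 1, 5.49 in cow 3, 6.40 in cow 7 and 5.71 in cow 8, and at 6 h 5.51, 5.07, 5.22 and 3.63. Cow 1 was the highest cow at -22, 3, 6, 9 and 12 h and second to cow 2 at 48 h, and the low value at 6 h was cow 8 alone. At 9 h the range was 4.81 to 5.74 (median 5.11), at 12 h the values were 7.20, 6.25, 6.23 and 6.13, and at 48 h they ran from 5.77 to 7.10 (median 6.06). All of these ranges overlap with -22 h. The change of -0.93 at 6 h (SE 0.34, adjusted p = 0.0265, lower in 3 of 4 cows) was lost without cow 3 (-0.91, adjusted p = 0.0774), without cow 8 (-0.60, adjusted p = 0.168), without the -22 h array of cow 1 (-0.76, adjusted p = 0.0602) and in the 4 cows that have every hour (-1.10, adjusted p = 0.0659). With the cow as a replicate block it passed the threshold (adjusted p = 0.0012, lowest of the alternatives). At 9 h the change was -0.57 (SE 0.28, adjusted p = 0.0809, lower in 7 of 8 cows). With the cow as a replicate block the same change had an adjusted p of 0.013, and without the -22 h array of cow 7 it was -0.65 (adjusted p = 0.0474). The changes at 3, 12 and 48 h were 0.31, 0.66 and 0.45 with adjusted p of 0.64, 0.135 and 0.202, and that at 12 h was 0.83 without the -22 h array of cow 1 (adjusted p = 0.0391). No neighbours in the order of means (12, 48, 3, -22, 9 and 6 h) passed the test, but 12 h was above 9 h by 1.23 (SE 0.34, adjusted p = 0.0085) with no overlap between the cows. The dimmer PPARA probe set lay between 2.68 and 3.07 on all 36 arrays, below the array medians. Its one change, 0.12 at 6 h (SE 0.05, adjusted p = 0.0485), opposite in sign to the brighter probe set, was lost when any 1 of the 8 cows was left out (adjusted p = 0.0509 to 0.0952) and with the cow as a replicate block (adjusted p = 0.125). Its change of 0.07 at 9 h (adjusted p = 0.105) passed the threshold in 3 of 19 alternatives. These were without cow 7 (adjusted p = 0.00693), without the -22 h array of cow 7 (0.00861) and with array weights (0.0488). That of 0.07 at 48 h (adjusted p = 0.148) passed in 4 of 19, among them the same 3.

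NR1H3 (Entrez Gene 507176), the oxysterol receptor of the hepatocyte, fell on both of its probe sets. On the brighter the log2 values at -22 h ran from 9.20 to 10.1 with a median of 9.58, and at 3 h they were 9.43, 9.10, 9.59 and 9.31 in cows 1, 3, 7 and 8. At 6 h they were 8.37, 7.92, 8.39 and 8.46. The 8 cows covered 7.56 to 8.69 at 9 h (median 8.09), and at 12 h the values were 8.27, 7.70, 7.59 and 8.26. From 6 to 12 h no array reached the range of -22 h, while at 48 h the cows were back at 9.21 to 9.65 (median 9.37), the narrowest spread among the 8-cow hours. The changes were -0.30 at 3 h (SE 0.17, adjusted p = 0.41), -1.37 at 6 h (SE 0.17, adjusted p = 4.64e-08), -1.63 at 9 h (SE 0.14, adjusted p = 7.21e-12, 3.10-fold), -1.70 at 12 h (SE 0.17, adjusted p = 5.64e-10) and -0.26 at 48 h (SE 0.14, adjusted p = 0.142). The means of HNF4A, RXRA and PPARA (brighter probe set) at 12 h were above those at 9 h (adjusted p = 5.32e-05, 0.000577 and 0.0085). The brighter NR1H3 probe set had a change from 9 to 12 h that did not pass the test (-0.07, SE 0.17, adjusted p = 0.82). On the dimmer NR1H3 probe set this step was 0.36 (SE 0.16, adjusted p = 0.117), which did not pass either. That the genes differ in this step was not tested. On the brighter probe set, of the neighbours in the order of means (-22, 48, 3, 6, 9 and 12 h), 3 and 6 h differed (adjusted p = 5.22e-05). The others did not pass the test.

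The dimmer NR1H3 probe set moved less. Its log2 values were 6.32 to 7.52 at -22 h (median 6.81), 7.08, 6.83, 6.83 and 6.78 at 3 h, and 6.13, 6.30, 6.10 and 6.06 at 6 h. At 9 h they were 5.53 to 6.26 (median 6.11), at 12 h 6.14, 6.31, 6.33 and 6.64, and at 48 h 6.71 to 7.79 (median 7.15). The arrays of 6 and 9 h did not overlap with -22 h, and those of 12 h did. It fell by 0.71 at 6 h (SE 0.16, adjusted p = 0.000377), by 0.87 at 9 h (SE 0.13, adjusted p = 7.97e-07) and by 0.50 at 12 h (SE 0.16, adjusted p = 0.00988), the last lost without cow 3 (adjusted p = 0.0587) and in the 4 cows that have every hour (-0.35, adjusted p = 0.147). The probe sets of NR1H3 differed in sign at 48 h, where the dimmer had a change of 0.31 (SE 0.13, adjusted p = 0.0609, higher in 7 of 8 cows). This change passed the threshold in 3 of 20 alternatives, with the cow as a random replicate block (0.31, adjusted p = 0.045), without cow 4 (0.43, adjusted p = 0.0187) and after centring (0.45, adjusted p = 0.00519).

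NR5A2 (Entrez Gene 541305), an orphan receptor of hepatocytes and exocrine pancreas, peaked at 6 h. Its log2 values at -22 h ran from 6.73 to 7.65 with a median of 7.41, and the cows at 3 h were nearly equal at 7.49, 7.45, 7.43 and 7.44. At 6 h they stood at 9.22 in cow 1, 9.67 in cow 3, 9.88 in cow 7 and 9.39 in cow 8, above every array of any other hour. They were 7.44 to 8.59 at 9 h (median 8.14), 7.23, 6.73, 7.38 and 7.34 at 12 h, and 5.69 to 7.54 at 48 h (median 6.66). The 9 h and 48 h ranges overlap with -22 h, but each cow moved the same way. The change was 2.27 at 6 h (SE 0.24, adjusted p = 1.91e-09, 4.83-fold), 0.84 at 9 h (SE 0.20, adjusted p = 0.000504, higher in 8 of 8 cows), -0.10 at 12 h (SE 0.24, adjusted p = 0.794) and -0.65 at 48 h (SE 0.20, adjusted p = 0.0176, lower in 8 of 8). The last was lost without cow 1 (-0.59, adjusted p = 0.0792). At 3 h the change was 0.18 (SE 0.24, adjusted p = 0.698). Ordered by mean, 6 h differed from 9 h (adjusted p = 2.55e-05) and 9 h from 3 h (adjusted p = 0.0203), while the later neighbours in the order (3, -22, 12 and 48 h) did not pass the test. The change from 6 to 48 h was -2.92 (adjusted p = 7.83e-12, with 39.3% of all probe sets changed between these hours).

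**Figure D2:**
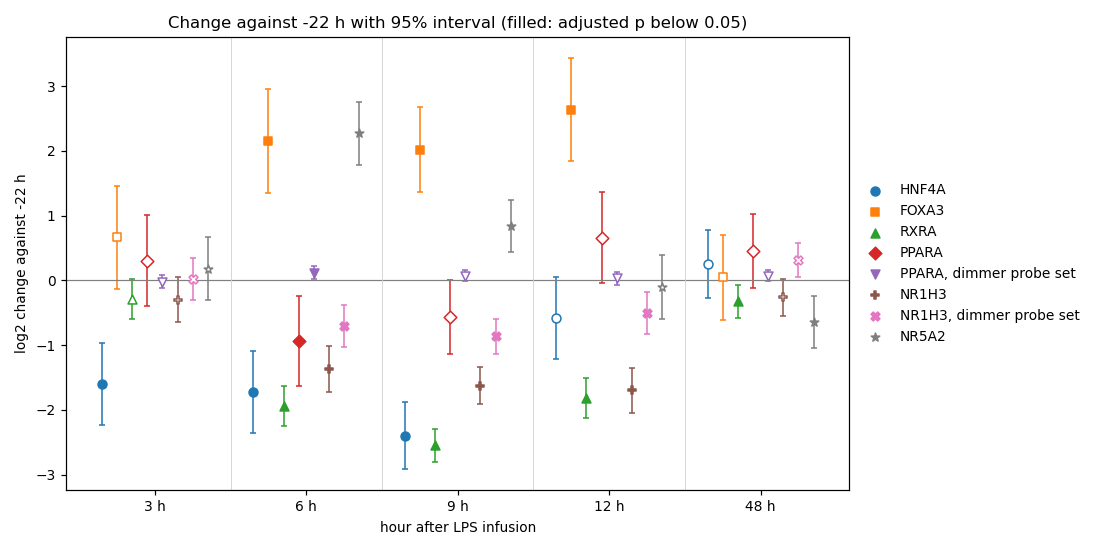
Log2 change of the 8 probe sets against -22 h at 3, 6, 9, 12 and 48 h, with its 95% interval from limma; filled symbols have an adjusted p below 0.05. At 9 h RXRA and HNF4A lie at -2.55 and -2.40 and FOXA3 at 2.02, and at 48 h the filled symbols are RXRA at -0.32 and NR5A2 at -0.65.

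Between successive hours after LPS, the step from 3 to 6 h moved the most members. It changed 7 of the 8 probe sets (3 higher, 4 lower, all but HNF4A), where 50.7% of all probe sets changed. The 3 include the dimmer PPARA probe set, which lies below the array medians (0.14, SE 0.06, adjusted p = 0.0443). The brighter PPARA probe set was lower (-1.24, SE 0.40, adjusted p = 0.0122). From 6 to 9 h 2 changed, RXRA and NR5A2, both lower (24.4% of all). From 9 to 12 h 4 changed, with HNF4A, RXRA and PPARA higher and NR5A2 lower (20.4%). From 12 to 48 h 5 changed, with HNF4A, RXRA and both NR1H3 probe sets higher and FOXA3 lower (39.4%). By the stricter definition used in the study's methods, a Bonferroni-adjusted p below 0.01 in at least 1 comparison of successive hours, 4 of the 8 probe sets were differentially expressed (22.2% of all): FOXA3 between 12 and 48 h, RXRA between 3 and 6 h and between 12 and 48 h, the brighter NR1H3 probe set between 12 and 48 h, and NR5A2 between 3 and 6 h. Without cow 1, 3, 7 or 8 that count was 2. Over the whole array the definition gave 5348 probe sets here. The study reports a lower number, and the cause of this difference was not tested.

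The shapes of the profiles can be set side by side over the 36 arrays, which share the arrays and the cows, so that the correlations are a description only. RXRA and NR1H3 ran closest (r = 0.92), followed by HNF4A and RXRA (r = 0.75). FOXA3 ran opposite to NR1H3 (r = -0.81) and to RXRA (r = -0.77). PPARA was not close to any other member, with r between -0.49 and 0.44. Among the 9155 genes with a probe set that names them alone, the profiles most like that of RXRA were ACBD4 and the peroxisomal protease LONP2 (r = 0.98 for both). Most like NR1H3 were EBP, a sterol isomerase of cholesterol synthesis, and CFDP1 (r = 0.95 and 0.94), and most like NR5A2 were ANKHD1 and CREB3L2, an endoplasmic reticulum stress factor (r = 0.92 and 0.91). HNF4A had TMEM86A and MCRIP2 (r = 0.85 for both), FOXA3 had CLDND1 and EMG1 (r = 0.89 and 0.87), and PPARA had MRPL27 and CERS2, a ceramide synthase (r = 0.82 and 0.77).

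The genes around these factors were read from 7 lists of 140 genes in all, of which 90 were measured. Over all 9155 genes at 9 h 36.6% were higher and 28.4% lower, and the median log2 change was 0.04. Of 23 measured nuclear receptors outside the members, 6 rose, 5 fell and 12 passed in neither direction (median change 0.02). Of the 6 that rose, 3 had means of 2.15 to 2.58 and small changes, namely NR2E3 (0.05, adjusted p = 0.0133), PGR (0.03, adjusted p = 0.0482) and NR0B1 (0.07, adjusted p = 0.0438), which are named here after their values were seen. So are the others that rose. NR1H2 changed by 1.20 (SE 0.13, adjusted p = 6.09e-10, higher in 8 of 8 cows) and RXRB by 0.27 (SE 0.10, adjusted p = 0.0239, higher in 6 of 8). PPARD went from a mean of 2.63 to 3.20 (adjusted p = 0.0119). The largest falls with the same direction in every cow were those of THRA, a thyroid hormone receptor (-2.61, SE 0.16), RORA (-1.78, SE 0.21), the glucocorticoid receptor NR3C1 (-1.71, SE 0.20) and RARA, a retinoic acid receptor (-1.55, SE 0.11), with adjusted p from 2.63e-15 to 1.17e-08. RORA went from a mean of 5.32 to 3.54, below the array medians. It did not pass the test at 6 or 12 h (adjusted p = 0.592 and 0.329) and was higher at 48 h (adjusted p = 0.00922). The remaining receptor that fell, RXRG, named after its values were seen, went from a mean of 2.91 to 2.16 (adjusted p = 0.00676). Both means of RXRG lie below the array medians. With the 4 cows sampled at all hours 1 receptor rose and 5 fell. Of 13 measured coregulators 4 rose and 6 fell (median change -0.06). PPARGC1A, a coactivator of PPARA and HNF4A in fasting, rose by 2.76 (SE 0.30, adjusted p = 1.18e-09), while TBL1X and HDAC3, subunits of the corepressor complex of nuclear receptors, fell by 1.80 each (SE 0.15 and 0.11) and the acetyltransferase KAT2B changed by -1.60 (SE 0.10).

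Of 9 other liver-enriched transcription factors measured, 6 fell and 1 rose at 9 h (median change -0.68). ATF5 changed by -1.91 (SE 0.21, adjusted p = 1.93e-09), HHEX by -1.46 (SE 0.22), KLF15 by -0.96 (SE 0.18) and GATA4 by -0.68 (SE 0.10), each lower in 8 of 8 cows. This list, like HNF4A, had moved by 3 h, when 4 of 9 were lower, beside 2.57% of all genes. They were CEBPA, named after its value was seen (-1.73, SE 0.28, adjusted p = 7.66e-05), HHEX (-1.09, SE 0.26, adjusted p = 0.00826), ATF5 (from a mean of 13.0 to 12.0, SE 0.26, adjusted p = 0.0131) and GATA4 (-0.46, SE 0.13, adjusted p = 0.0194). With the 4 cows sampled at all hours 2 of the 9 were lower at 3 h.

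Genes known as targets of the members were mostly lower at 9 h. Of 15 measured targets of HNF4A and FOXA factors 11 fell and 2 rose, with a median change of -0.30. Among these targets ALB, APOA1, APOB, TTR, TF and SERPINA1 are also hepatocyte markers counted above. PCK1, the gluconeogenic carboxykinase, changed by -3.74 (SE 0.24), MTTP, which loads lipid onto apolipoprotein B, by -3.62 (SE 0.21), TAT, an enzyme of tyrosine breakdown, by -3.49 (SE 0.56) and the urea cycle enzyme OTC by -1.30 (SE 0.13). The 2 that rose, named after their values were seen, were IGFBP1 and G6PC1, another gluconeogenic enzyme. They changed by 2.38 (SE 0.70, adjusted p = 0.00488) and 0.71 (SE 0.20, adjusted p = 0.00339). The rise of G6PC1 was seen at 9 h only. Its changes at 3, 6 and 12 h did not pass the test (-0.40, -0.43 and -0.23). At 48 h G6PC1 was lower (-0.68, SE 0.20, adjusted p = 0.0143, lower in 8 of 8 cows). The study, which names no probe set for it, lists G6PC among the genes that decreased after LPS. Of 18 measured PPARA targets 13 fell and 4 rose (median change -1.03). The change of PPARA itself at that hour did not pass the test (-0.57, adjusted p = 0.0809, lower in 7 of 8 cows). With the cow as a replicate block it did pass (adjusted p = 0.013). The enzyme CPT2 of mitochondrial fatty acid import changed by -3.09 (SE 0.09, adjusted p = 4.88e-23) and PDK4, which restrains glucose oxidation, by -4.84 (SE 0.44, adjusted p = 2.93e-11). The lipid droplet protein PLIN2 and the lipase inhibitor ANGPTL4 went the other way, rising by 3.19 (SE 0.26) and 2.80 (SE 0.31).

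At 9 h NR1H3 targets had the lowest median of the 7 lists, -2.27 (at 12 h that of the bile acid genes was lowest, -2.69), with 7 of 9 measured genes lower and 1 higher. ABCG8, a subunit of the biliary cholesterol exporter, went from a mean of 7.76 to 2.60 (-5.15, SE 0.36, adjusted p = 4.67e-14). The desaturase SCD changed by -2.62 (SE 0.41) and the phospholipid enzyme LPCAT3 by -2.53 (SE 0.23). PLTP, the phospholipid transfer protein, was the gene that rose, by 2.46 (SE 0.33). Of 5 measured genes of bile acid handling 4 fell and 1 rose, with a median change of -1.82. CYP7A1, which encodes the first enzyme on the classic route from cholesterol to bile acids and is a target of NR5A2, went from 13.2 to 3.10. NR5A2 itself was higher at that hour than at -22 h in 8 of 8 cows. The uptake carrier SLC10A1 changed by -1.82 (SE 0.17). SLC51A and SLC51B, which form 1 bile acid exporter, moved in opposite directions, from 2.35 to 7.04 (4.69, SE 0.27) and from 9.08 to 4.72 (-4.37, SE 0.23). ABCG8 and CYP7A1 at 9 h and SLC51A at -22 h thus had means below the array medians.

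**Figure D3:**
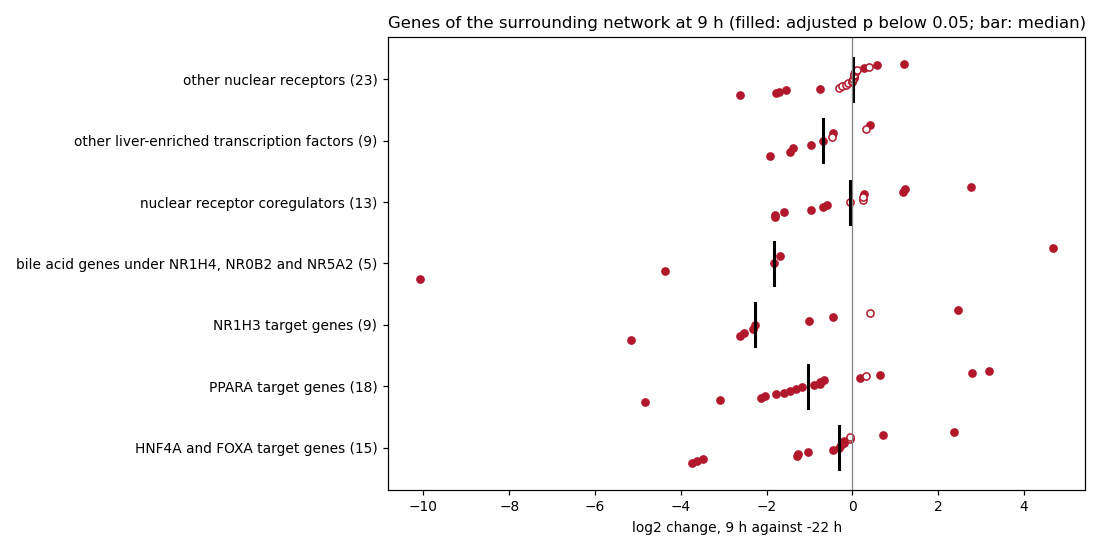
Log2 change at 9 h against -22 h of the measured genes of 7 lists (number measured in brackets); each point is 1 gene, filled where its adjusted p is below 0.05, and the black bar is the median of the list. The lowest median is that of the NR1H3 targets at -2.27, and the point at the far left is CYP7A1.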

How the data were processed

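Deposited values are log2 expression per probe set and array, made by the authors with GCRMA in R (sequence-based background correction, quantile normalization and summary), and were used unchanged. A linear model with a mean for each hour was fitted to the 24128 probe sets (112 of them controls) of the 36 arrays. It left the cow out and was run in limma (version 3.58.1, R version 4.3.3). Whether the study's own model held the cow cannot be read from its methods. Changes against -22 h and between hours were adjusted by Benjamini-Hochberg (0.05), and the study's definition of differential expression between successive hours used Bonferroni (0.01). The annotation names 1 gene for 13318 probe sets, several for 86 and none for 10724 that it does not list. Genes of lists were read at their brightest probe set on average.

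Members and lists were chosen with earlier results of these data known. Named genes are all members, per list up to 4 genes with the largest change at 9 h that changed alike in all 8 cows, and per member the 2 most correlated genes. Cows are the replicates, and a cow's arrays deviate together: deviations at -22 and 48 h correlated at 0.116 to 0.505 within a cow, and those at -22 and 9 h at 0.215 to 0.431. Alternatives were the cow as a block, cows or arrays left out, array weights, centring, filters, another variance prior and other adjustments. Scripts were tested on simulated data. The number of arrays limits the precision. Figures were drawn in Python 3.11.15.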

Additional observations from a re-analysis of the deposited data

Results flagged for a closer look

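Single cows stood apart from the rest of their hour in 6 of 48 groups of arrays (8 probe sets at 6 hours), where chance gives about 1 in 20 for separate groups. The 48 groups share arrays and cows, so these counts cannot show whether 6 is more than chance gives. HNF4A at 48 h was 9.09 in cow 2, below the 9.58 to 9.97 of the other 7 cows. PPARA at 12 h was 7.20 in cow 1, above the 6.13 to 6.25 of the other 3. The dimmer PPARA probe set was 3.00 in cow 7 at -22 h (others 2.68 to 2.79) and 3.07 in the same cow at 6 h (others 2.81 to 2.82). NR1H3 at 6 h was 7.92 in cow 3, below the others at 8.37 to 8.46, and its dimmer probe set at 3 h was 7.08 in cow 1, above 6.78 to 6.83. The -22 h array of cow 7 is also the array with the brightest hybridization controls (13.1), and its part in the value was not tested.

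NR5A2 changed in opposite directions at 6 and 48 h. Its change was 2.27 at 6 h and -0.65 at 48 h, and the difference of -2.92 between these hours passed the test (limma, adjusted p = 7.83e-12, with 39.3% of all probe sets changed between them).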

How the results depend on the processing

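Of the 40 changes against -22 h (8 probe sets at 5 hours), 20 kept their direction and their side of the threshold under every alternative, and 5 turned their sign under at least 1, none of them past the threshold. With the cow as a replicate block, which pairs the arrays of a cow, the counts of changed members at 3, 6, 9, 12 and 48 h were 1, 7, 7, 4 and 2, and apart from PPARA at 9 h and its dimmer probe set at 6 h no call changed. With the cow as a random replicate block the counts were 1, 8, 7, 4 and 3, where PPARA at 9 h (adjusted p = 0.0423) and the dimmer NR1H3 probe set at 48 h (adjusted p = 0.045) were gained. With Bonferroni adjustment the counts were 0 at 3 h, 3 at 6 h and 0 at 48 h. The count of 2 at 48 h was 1 with the 4 cows sampled at all hours, without the 48 h array of cow 2 and without the -22 h array of cow 1, and 0 to 2 when a cow was left out (0 without cow 1, 1 without cow 2, 6 or 8). Without cow 4 or 7 it was 2 with RXRA lost and the dimmer NR1H3 probe set (adjusted p = 0.0187) or the dimmer PPARA probe set (adjusted p = 0.00794) gained, and it was 3 after centring. The number of members differentially expressed between successive hours was 2 to 3 without 1 cow and 7 with a Benjamini-Hochberg-adjusted p below 0.01. Of the 12 genes named for their likeness over the arrays, 1 was also among those named over the 6 hourly means. Of 90 list genes 70 were changed at 9 h, where 36.6% of all 9155 genes were higher and 28.4% lower. Under the alternatives 49 to 75 list genes were changed, and the matching shares over all genes are not given here. Sign changes were NR5A2 at 3 h (-0.0226 with the replicate block, -0.0719 with the 4 cows), the dimmer NR1H3 probe set at 3 h (-0.0320 with array weights, -0.0105 after centring, -0.0645 to 0.115 without 1 cow), the dimmer PPARA probe set at 3 h (0.0153 without the -22 h array of cow 7, an alternative chosen after seeing the data, and -0.0371 to 0.0318 without 1 cow), NR5A2 at 12 h (-0.177 to 0.0953 without 1 cow) and FOXA3 at 48 h (-0.136 to 0.228 without 1 cow). The filter on dim probe sets left out the dimmer PPARA probe set. The cause of these differences was not tested. The 3, 6 and 12 h arrays come from 4 cows, so smaller changes were harder to detect there.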
